A study of Mus musculus with 12 samples.

Results

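The anti-m6A immunoprecipitate (IP) of untreated HT22 cells was compared with its own input RNA, peak by peak. Of the 2643 m6A peaks on 2171 genes in the deposited table, the 2598 peaks on 2142 genes with 30 or more reads in the control IP and control input together were kept, and the other 45 peaks held between 17 and 29 reads. HT22 is an immortalized mouse line of hippocampal origin, and all cells were wild type and of this 1 line. The study sequenced 12 libraries by MeRIP-seq, in which fragmented RNA is pulled down with an antibody against m6A and read beside input, fragmented RNA set aside before the pull-down. Control cells received no mesaconitine (MA), a diterpenoid alkaloid of Aconitum plants, and MA cells received 800 μM for 72 h. The deposited table is that of the authors' comparison of methylation between these conditions, and it lists fewer peaks than the authors report for control cells alone. Each condition had 3 IP and 3 input libraries, and the table gives 1 read count per peak for the 3 libraries of a group summed. There is therefore no replicate check on any value below. For single peaks, the 95% intervals are exact (Clopper-Pearson) intervals of the IP share that cover counting error only. Those of medians come from the ranked values of the peaks. They treat peaks as independent, which peaks of the same pooled columns are not, and serve as description.

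N6-methyladenosine (m6A) is the most common internal modification of mRNA. It is placed by a nuclear writer complex built around METTL3 and METTL14, removed by the demethylases FTO and ALKBH5, and bound by readers of the YTH family that influence splicing, translation and decay. Writers act on adenosines within DRACH (D is A, G or T, R is A or G, and H is A, C or T), and in mammalian mRNA the mark is known to collect in long exons and around stop codons.

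The label of the line was set against marker genes through the base mean of the expression table, a normalized read count averaged over its libraries. Which libraries it covers is not given in the sources used here, and those of MA cells may be among them. Of 8 neuronal markers, Map2, Snap25, Nefl, Nefm and Dcx were at 0, while Tubb3 (473) and Syn1 (710.0) were detected. Among 5 markers of hippocampal excitatory neurons, Prox1 and Neurod1 were at 0 and the highest was Camk2a at 30.1. The 4 fibroblast markers all stood at 100 or more, from Dcn (145) and Pdgfra (8906) to Col1a1 (100160) and Col3a1 (134804). Slc1a2 (115) was the only 1 of 14 astrocyte, oligodendrocyte and microglia markers to reach 100. A base mean of 0 does not show that a gene had no reads. Peaks on genes at 0 held a median of 28 control input reads, and the Usp26 peak held 528. The cells are therefore named below by their line and not by a cell type.

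The sequences of 8 peaks or sites are shown because they stand at the ends of the range of IP over input. They are read from RefSeq's GRCm38 (mm10) assembly on the transcribed strand, 5′ to 3′, with every DRACH in capitals. The first 4 belong to Neat1, Dgcr8 and Fndc7, and the last 4 to Slc27a1, Uhrf2, Gpr137 and Clcn4. For peaks in a 3′UTR, and for Gpr137, only a stretch around 1 DRACH is given.
Neat1, high peak: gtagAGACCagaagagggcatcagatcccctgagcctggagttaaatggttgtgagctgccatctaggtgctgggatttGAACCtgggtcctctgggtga
Neat1, low peak: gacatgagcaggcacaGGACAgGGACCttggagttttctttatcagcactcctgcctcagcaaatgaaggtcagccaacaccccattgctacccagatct
Dgcr8: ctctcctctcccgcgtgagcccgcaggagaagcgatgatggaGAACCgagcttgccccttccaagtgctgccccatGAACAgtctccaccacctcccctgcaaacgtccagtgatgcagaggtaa
Fndc7: tttaaaggagGAACTcAGACTgttt
Slc27a1: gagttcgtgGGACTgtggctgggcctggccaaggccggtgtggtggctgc
Uhrf2: gcagagctGGACCatgtctttcg
Gpr137: ccaggtgccaGGACCtggtagtcac
Clcn4: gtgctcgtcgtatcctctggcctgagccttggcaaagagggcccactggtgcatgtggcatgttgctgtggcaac

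Both Neat1 stretches lie on the minus strand of chromosome 19, at chr19:5828510-5828609 for the high and chr19:5832035-5832134 for the low peak, in the single exon of this noncoding RNA. The Dgcr8 peak (chr16:18284272-18284396, minus strand) lies in coding exon 2 of 14. The Fndc7 site (chr3:108856158-108856182, minus strand) is in the 3′UTR, in exon 13 of 13. The Slc27a1 peak (chr8:71579654-71579703, plus strand) is in coding exon 4 of 14, and the Uhrf2 site (chr19:30092937-30092959, plus strand) is in the 3′UTR, in exon 16 of 16. The Gpr137 site (chr19:6938403-6938427, minus strand) is in the coding part of exon 7 of 7, and the Clcn4 peak (chr7:7293969-7294043, minus strand) is in coding exon 7 of 13. The Clcn4 stretch holds no DRACH, and the Slc27a1, Uhrf2 and Gpr137 stretches hold 1 each, with GGAC as its core.

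The quantity reported throughout is the log2 of IP over input, after each column was divided by its total over the listed peaks, which was 267002 reads for the control IP and 288659 for the control input. A value of 0 means that a peak took the same share of the IP reads as of the input reads. It does not mean that the peak was not enriched over the rest of the transcriptome, since every region in the table had already been called a peak, and 1 list serves control and MA cells alike. The median kept peak held 59 input and 58 IP reads. Its log2 value was 0.05, and the middle 90% of peaks lay between -0.65 and 1.31. The distribution reached farther upward, with 1404 peaks above 0 and 1194 below.

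IP was at least 2-fold above input, a log2 of 1 or more, at 240 peaks on 228 genes, or 9.24% of the kept peaks. It was at least 2-fold below input at 20 peaks on 19 genes, or 0.77%. The median high peak held 18 input and 44.5 IP reads and the median low peak 40 input and 14.5 IP reads. The exact interval lay above 0 for 484 peaks (18.6%) and below 0 for 311 (12%), and these included 237 of the 240 high and 19 of the 20 low peaks. Among the 1474 peaks with 100 or more reads, 50 (3.39%) were high and 4 (0.271%) were low.

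The spread depended on depth. In peaks of 30 to 49 reads the median was 0.31 and 18.6% were 2-fold above, against a median of -0.12 and 0.6% in peaks of 400 or more reads. Across the 2598 peaks the log2 value and the number of reads had a Spearman's rho of -0.28, given as a description of values that share the same reads. The interval reached a median of 0.996 to each side at 30 to 49 reads and of 0.23 at 400 or more. On either side of the read minimum, the median was 0.39 in the 60 peaks of 30 to 34 reads and -0.19 in the 45 peaks left out. A peak could pass the minimum through the IP reads alone. The named genes below were taken from peaks with 100 or more reads unless another number is given.

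**Figure D1:**
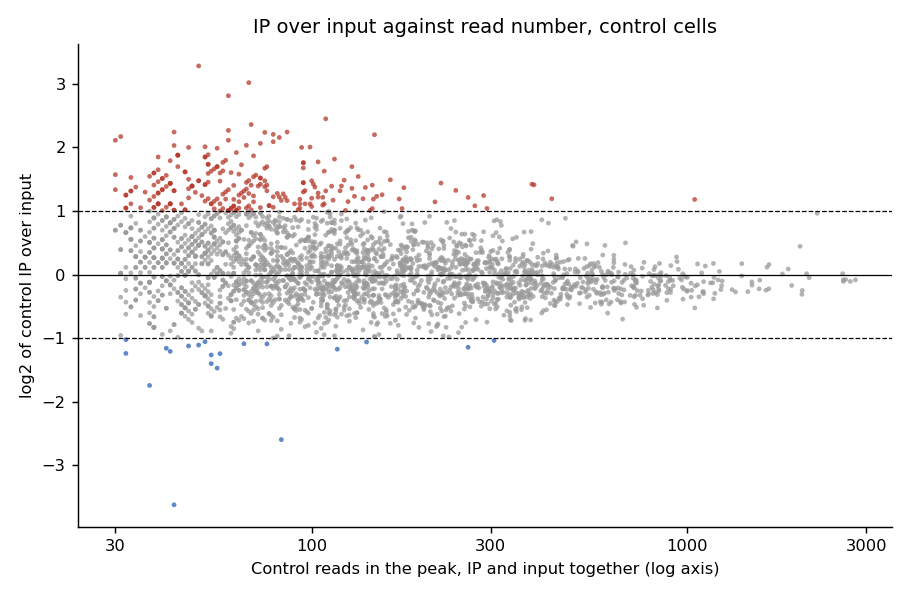
Each point is 1 of the 2598 kept peaks, with control reads of IP and input together on a log axis and the log2 of control IP over input on the vertical axis. Red points are the 240 peaks at least 2-fold above input, blue points the 20 at least 2-fold below, dashed lines mark 2-fold, and the cloud narrows from left to right.

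The highest values with 100 or more reads belonged to the Ugt1a cluster and to Neat1. The Ugt1a peak, on the exons at the 3′ end that UDP-glucuronosyltransferases of the 1A family share, held 18 input and 91 IP reads, a log2 of 2.45 (1.71 to 3.27). It carries the names of 8 genes, and its reads cannot be assigned to any 1 of them. Neat1, the long noncoding RNA that scaffolds nuclear paraspeckles, held 28 input and 119 IP reads in its high peak, a log2 of 2.20 (1.60 to 2.85). Both intervals lay wholly above 2-fold.

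Neat1 was also the only gene with peaks past 2-fold both ways, a feature singled out after its values were seen. Its low peak held 39 input and 15 IP reads, a log2 of -1.27 (-2.23 to -0.37), and 3425 bases separated it from the high peak. The midpoints lie at bases 16918 (high) and 13393 (low) of a transcript of 20771 bases. The 2 stretches printed above hold 2 DRACH each, and those of the low peak are GGACA and GGACC.

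Zmynd8, Zfp943 and Dgcr8 were among the next. Zmynd8, a chromatin reader, held 27 input and 88 IP reads (1.82, 1.18 to 2.50) in its 3′UTR. The zinc finger gene Zfp943 had 25 and 79 reads (1.77, 1.11 to 2.48), also in the 3′UTR. Dgcr8, the RNA-binding partner of Drosha in the first cut of microRNA precursors, had 36 and 97 reads (1.54, 0.98 to 2.14) in a peak that the table also names for Mir1306. The Dgcr8 stretch printed above has 2 DRACH, while the Zmynd8 and Zfp943 peaks of 50 bases have none.

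The other high genes were Cfap161, a cilia- and flagella-associated protein (32 input and 96 IP reads, 1.70), Nell2, a secreted protein with EGF-like repeats (28 and 80, 1.63), the predicted gene Gm8369 (45 and 117, 1.49), the AMPK-related kinase Nuak2 (34 and 88, 1.48), Fndc7 with fibronectin type III domains (28 and 72, 1.48), the adhesion protein αT-catenin Ctnna3 (63 and 158, 1.44) and the leucine-rich repeat protein Lrrn3 (29 and 72, 1.42). All 12 of these highest genes had intervals above 0, and the lowest bound was 0.78, for Lrrn3. Their input counts, from 18 to 63 reads, were all below the median of 116 for peaks of this depth. Input enters the ratio by which these genes were chosen, so low input counts follow in part from the choice. Base means were 0 for Nell2, Gm8369 and Ctnna3 and 5.10 for Cfap161, against 19463 for Neat1 and 3286 for Zmynd8.

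At the low end, 4 of the 12 lowest genes passed 2-fold. Slc25a40, a mitochondrial carrier, held 83 input and 34 IP reads in its 3′UTR, a log2 of -1.18 (-1.80 to -0.58). Slc27a1, a fatty acid transport protein, held 184 input and 77 IP reads in the exon 4 peak printed above, a log2 of -1.14 (-1.55 to -0.75). Uhrf2, a RING-type ubiquitin ligase that binds modified DNA, had 97 and 43 reads (-1.06, -1.61 to -0.53). Uba1, the main ubiquitin-activating enzyme, had 211 and 95 (-1.04, -1.40 to -0.68) in a peak placed on a noncoding transcript. All 4 intervals lay below 0.

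The remaining 8 lay just short of 2-fold, between -0.98 and -0.91. They were the RNA-binding protein Mex3d and the membrane protein Gpr137 (100 input and 47 IP reads each), the chloride and proton exchanger Clcn4 (152 and 72), the PGC-1-related coactivator Pprc1 (116 and 55), the noncoding RNA St8sia3os (78 and 37), Ddah2 (73 and 35), the membrane-bound ubiquitin ligase Marchf8 (102 and 49) and the Golgi calcium and manganese pump Atp2c1 (69 and 34). Their intervals all lay below 0, the closest to 0 being that of Atp2c1 at -0.30. High and low genes with 100 or more reads therefore differed in size as well as number, from 1.42 to 2.45 at one end and from -1.18 to -0.91 at the other. Of all kept peaks, the 20 past 2-fold below were each 2-fold above in MA cells. The part of peak selection in the difference between the ends was not tested.

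**Figure D2:**
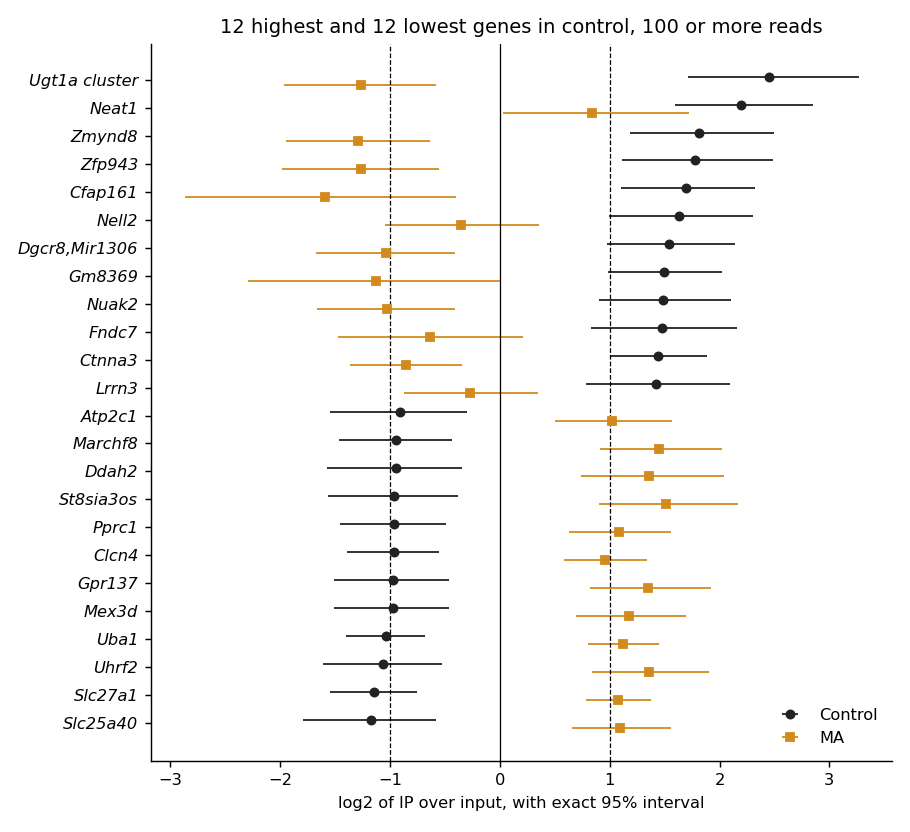
Log2 of IP over input with exact 95% intervals for the 12 highest and 12 lowest genes with 100 or more control reads, in control cells (black circles) and, for the same peaks, in MA cells (orange squares). The control values run from 2.45 for the Ugt1a cluster to -1.18 for Slc25a40, and apart from Neat1 (0.84 in MA) each MA value is on the other side of 0.

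Below 100 reads the range was wider, and the extremes named here were chosen after their values were seen. Epn3, an adaptor of clathrin-mediated endocytosis, had the highest value of all with 5 input and 45 IP reads (3.28, 1.95 to 4.97). Rpgrip1l, a protein of the ciliary transition zone, followed with 8 and 60 reads (3.02, 1.95 to 4.30). At the other end, Ppargc1a, the coactivator of mitochondrial biogenesis, had 40 input and 3 IP reads in its 3′UTR (-3.62, -5.96 to -1.97). A second Slc27a1 peak had 72 and 11 (-2.60, -3.66 to -1.67), and Ino80d, a subunit of the INO80 remodeller, had 29 and 8 (-1.75, -3.09 to -0.58). With 3 IP reads, the Ppargc1a estimate had the widest interval of these 5.

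The best measured high peaks had 200 or more reads. Of 824 such peaks 11 were 2-fold above (1.33%) and 2, the Slc27a1 and Uba1 peaks already given, were 2-fold below (0.243%). Mfap1a, a splicing factor, was the deepest with 338 input and 709 IP reads (1.18, 0.99 to 1.37). Adm, which encodes the vasodilator peptide adrenomedullin, had 111 and 275 reads (1.42, 1.10 to 1.75) in a 3′UTR peak of 175 bases with 8 DRACH. Bahd1, a heterochromatin protein, had 113 and 278 (1.41, 1.09 to 1.74), also in the 3′UTR. A further 7 were Csgalnact1, Arhgap18, the synaptic scaffold genes Dlg2 and Dlgap1, the cadherin Cdh11, Ctnna3, and a peak shared by Gm20605 and Lrch4, with values from 1.04 to 1.44. Dlg2 (0.66), Dlgap1 (7.50) and Cdh11 (5.76) had base means near 0 although 92, 83 and 73 input reads were counted in their peaks.

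The 5 peaks with the most reads were close to 0. Fnbp1, a membrane-bending F-BAR protein, held 1499 input and 1308 IP reads (-0.08, -0.19 to 0.02). Rpl39l, a ribosomal protein paralog, held 1464 and 1256 (-0.11), the glutathione transferase Gstm2 1410 and 1234 (-0.08), the methionine sulfoxide reductase Msrb3 1403 and 1203 (-0.11), and the dynein heavy chain gene Dync1h1 1391 and 1215 (-0.08). The deepest peaks thus took nearly equal shares of both columns.

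IP over input differed with the base mean of the gene. Base mean and log2 value had a rho of -0.20 over the 2531 peaks that name 1 gene of the expression table. It is given as a description, since input reads divide the log2 value and may also enter the base mean. On genes with a base mean of 0, 36 of 102 peaks (35.3%) were 2-fold above, with a median of 0.68 (0.48 to 0.89). For base means over 0 to 100 the share was 26.2% of 210 peaks (median 0.42, 0.33 to 0.58), and for 1000 to 10000 it was 4.70% of 1319 peaks (median -0.03, -0.06 to 0.00). Above 10000 it was 14.9% of 67 peaks, with a median of 0.13 whose interval held 0 (-0.13 to 0.32). None of the 312 peaks on genes with a base mean of up to 100 was 2-fold below. Over all 2598 kept peaks 20 were (0.77%), a share so low that this count says little. Peaks on genes of low base mean also held fewer reads, a median of 74.5 at a base mean of 0 against 145 at 1000 to 10000, so depth and base mean moved together. A base mean of 0 does not mean that no input reads were counted, as peaks on these genes held a median of 28 input reads. Their median of IP reads was 47.5, and a peak with few input reads could pass the read minimum through its IP reads. The part of this selection in the relation with base mean was not tested. Restricted to 100 or more reads, 5 of 35 peaks at a base mean of 0 and 14 of 82 at over 0 to 100 were high, against 15 of 841 at 1000 to 10000 and 2 of 41 above 10000. In MA cells the median of the kept peaks was -0.05 at a base mean of 0, with 11 of 102 above. At 1000 to 10000 it was 0.14 in MA cells, with 139 of 1319 above.

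Many of those peaks stretch over introns. The span between the first and last base of a peak held exon bases alone at 1661 kept peaks and included an intron at 905, of which 157 spanned more than 10000 bases and the longest, in Dlg2, 422530. Of the 157 longest spans, 50 (31.8%) were 2-fold above, with a median of 0.55 (0.38 to 0.77), against 40 of 748 (5.35%) for shorter intron-crossing peaks and 142 of 1661 (8.55%) for exon bases alone. Among the 109 long spans on genes with a base mean under 100 the share was 43.1%, and among the 47 on genes with 100 or more it was 6.38%. In exon bases alone the shares were 22.7% of 88 and 7.57% of 1532 peaks for the same 2 classes. In MA cells the median was -0.06 for the 157 longest spans and 0.13 for the 1661 peaks of exon bases alone.

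Of the 102 peaks on genes with a base mean of 0, 87 crossed an intron and 64 spanned over 10000 bases. They included Adamts3, a procollagen-processing protease (12 input and 57 IP reads, 2.36), the Nell2 relative Nell1 (16 and 70, 2.24), the RNA-binding protein Khdrbs2 (15 and 64, 2.21), the adhesion molecule Sdk2 and the LDL receptor family member Lrp1b (23 and 72 each, 1.76), and the netrin receptor Dcc (20 and 53, 1.52), all 6 named after their values were seen. A count is given per peak and not per base, so where in such a span the reads fall cannot be read from the table.

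**Figure D3:**
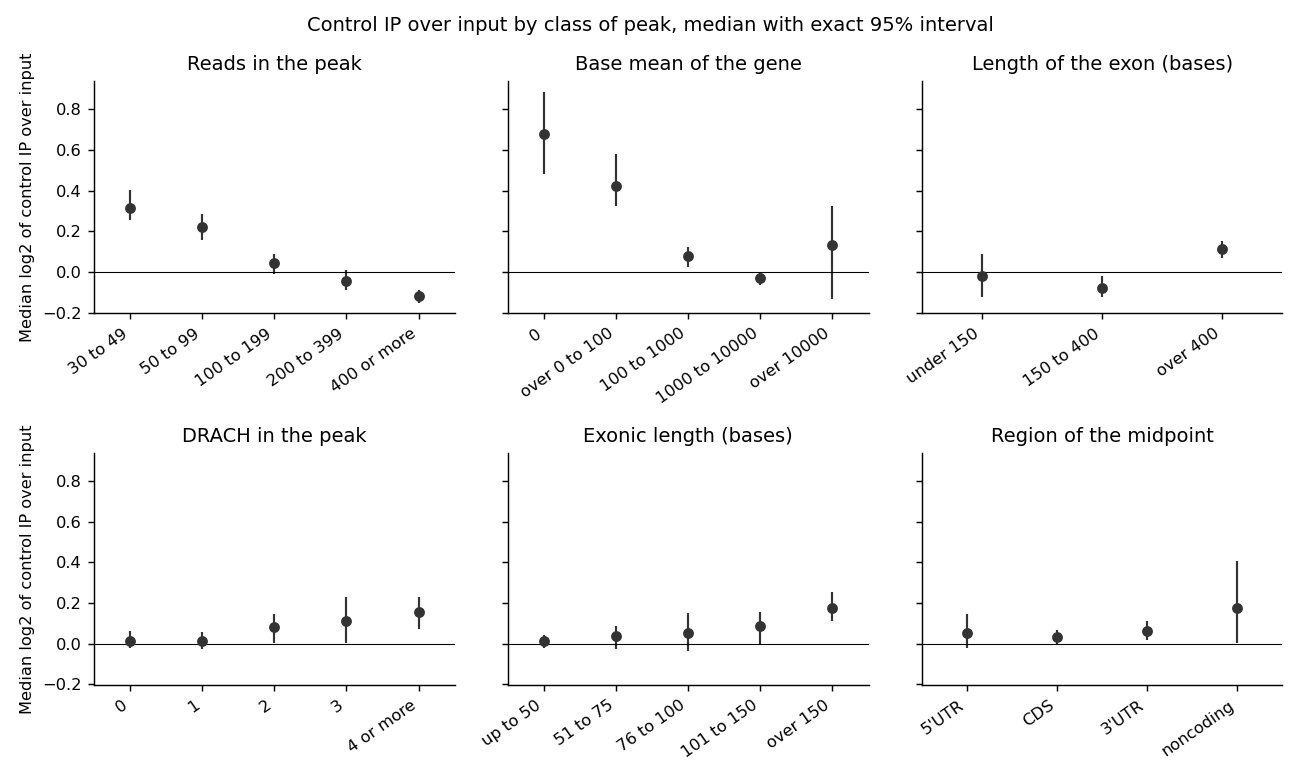
Median log2 of control IP over input with its exact 95% interval, by reads in the peak, base mean of the gene, length of the exon (peaks of exon bases alone), number of DRACH, exonic length and region. The medians fall from 0.31 to -0.12 with reads and from 0.68 to -0.03 with base mean up to 10000, and differ by less than 0.2 among the regions of the transcript.

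By region, the 2500 kept peaks on coding transcripts were placed by their midpoint, 235 (9.40%) in the 5′UTR, 1440 (57.6%) in coding sequence and 825 (33.0%) in the 3′UTR. Their medians were 0.05 (-0.02 to 0.15), 0.03 (-0.00 to 0.07) and 0.06 (0.02 to 0.11), with overlapping intervals, and 9.79%, 9.51% and 7.76% of them were 2-fold above. The order of the shares changed with depth. With 100 or more reads they were 4.08% of 147, 2.63% of 875 and 4.48% of 402 peaks. The 66 peaks on noncoding transcripts, Neat1 among them, had a median of 0.17 (0.01 to 0.41). Peaks within 200 bases of the stop codon (307) had a median of 0.04 and 7.49% above, against 0.05 and 9.17% for those farther away (2193). Within 200 bases of the transcript start the median was 0.02 over 223 peaks, against 0.05 over the other 2343. The intervals of these medians overlapped, both for the stop codon and for the start. The differences were not tested, and they say nothing on how many peaks lie there.

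Exon length gave a larger contrast. Among peaks of exon bases alone, the 1150 in exons over 400 bases had a median of 0.11 (0.07 to 0.15) and 110 (9.57%) were 2-fold above. The 335 in exons of 150 to 400 bases had a median of -0.08 (-0.12 to -0.02) and 5.97% above, and the 176 in exons under 150 bases had -0.02 (-0.12 to 0.09) and 6.82%. With 100 or more reads, 25 of 593 peaks in exons over 400 bases were 2-fold above, against 3 of 216 and 1 of 110 in the shorter classes. Midpoints within 50 bases of an exon junction had a median of -0.04 over 198 peaks and 4.55% above, against 0.11 and 9.38% over the 810 more than 400 bases from a junction or in exons without one. In MA cells the medians were 0.124 in exons over 400 bases, 0.135 at 150 to 400 and 0.119 under 150. By distance from a junction they were 0.21 for the 198 peaks and 0.17 for the 810.

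The motif was searched on the transcribed strand, with overlapping matches counted. At least 1 DRACH lay in 1889 of the 2566 kept peaks placed on a transcript (73.6%), and windows of the same lengths along the same transcripts held one in 73.9% of positions. For the 232 placed peaks that were 2-fold above, the shares were 81.0% of peaks and 79.2% of windows. GGAC, the most favoured core, was in 31.1% of peaks against 28.9% of windows, and in 41.4% of peaks 2-fold above against 33.1% of windows. Kept peaks with GGAC had a median of 0.11 and those without 0.02, at median exonic lengths of 100 and 50 bases. With 100 or more reads both medians were -0.04, and 4.15% of 458 peaks with GGAC against 2.98% of 1006 without were 2-fold above. In MA cells the medians of the kept peaks were 0.05 with GGAC and 0.15 without.

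Peaks with a DRACH had a median of 0.06 (0.03 to 0.11) and 9.95% above, and the 677 without had 0.01 (-0.02 to 0.06) and 6.50%. From 0 to 4 or more DRACH the medians went from 0.01 through 0.02, 0.08 and 0.11 to 0.15, and the share 2-fold above went from 6.50% to 14.9%. Longer peaks hold more motifs, and by exonic length the median went from 0.01 up to 50 bases to 0.17 over 150 bases. At an exonic length of exactly 50 bases, 56 of 614 peaks with a DRACH (9.12%) and 25 of 373 without (6.70%) were above, with medians of 0.02 and 0.01. The rank correlation with the log2 value over 2566 peaks, which share columns and depth, was 0.08 for the number of DRACH, 0.09 for exonic length and 0.05 for DRACH per base. With 100 or more reads the medians were -0.04 with a DRACH and -0.05 without. At this depth 8.91% of peaks with 4 or more DRACH were 2-fold above, against 2.28% of those with 0. In MA cells the median of the kept peaks was 0.13 with 0 DRACH and 0.04 with 4 or more.

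Genes with several peaks gave several values of IP over input on 1 gene. Of 372 genes with 2 or more kept peaks, 112 had all peaks above 0, 87 had all below and 173 had peaks on both sides. Over all kept peaks 1404 were above 0 and 1194 below. Whether peaks of 1 gene were more alike than peaks of different genes was not tested. The median gap between a gene's highest and lowest peak was 0.46, and 6 genes had a gap of 2 or more. Neighbouring peaks are not independent, since 166 pairs lay under 200 bases apart.

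Among genes with 2 or more peaks of 100 or more reads, Slc27a1 differed most. Its 4 kept peaks, in order along the transcript, had 184 and 77, 72 and 11, 158 and 74, and 52 and 87 input and IP reads, for log2 values of -1.14, -2.60, -0.98 and 0.86. The last of these was the only 1 above 0, and it directly follows the exon 10 peak of -0.98. In Atg2a, which transfers lipid to growing autophagosomes, 5 peaks had values of 0.87, 0.18, 1.88, -0.43 and -0.50 from the 5′ to the 3′ end, and the highest held 10 input and 34 IP reads. Tef, a circadian PAR bZIP transcription factor, had values of -0.33, -0.28, -0.06 and -0.04 in 4 peaks of the 5′UTR and coding sequence, and 1.88 (10 and 34 reads) in its 3′UTR.

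Other genes with 4 or more peaks stayed closer together. The 5 peaks of Mtx3, a protein of the mitochondrial outer membrane, ran from -0.83 to 0.01, the 4 of Dym from -0.57 to -0.12, those of Stard9 from -0.25 to 0.01 and those of Nf1, the RAS regulator neurofibromin, from -0.42 to 0.25. Nipa2, a magnesium transporter, ranged from -0.96 in its 3′UTR to 1.22 in its last coding stretch, and Rad54l2 from -0.36 to 1.16. Lnpk, Pip4k2a, Dock9 and the peaks shared by Wdfy2 and Mir8098 lay between -0.58 and 0.52. By peaks of 100 or more reads, Cdh13 (1.28 and -0.14), Bahd1 (0.07, 0.13 and 1.41), Polm (0.86 and -0.32) and Cntrob (0.45, -0.54 and -0.66) followed Slc27a1. In Bahd1 all 3 peaks lie in the 3′UTR, and 1.41 belonged to the one farthest from the stop codon.

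Gene lists are given by their counts and medians beside the 9.24% and 0.77% of all kept peaks past 2-fold and the overall median of 0.05. Lists differed in depth, and over all peaks of 100 or more reads these values were 3.39%, 0.271% and -0.04. Of the m6A machinery, 3 genes had a kept peak. The writer cofactor Rbm15 had 264 input and 220 IP reads (-0.15), the rRNA methyltransferase Mettl5 58 and 55 (0.04), and the reader Ythdf3 196 and 182 (0.01), all with intervals that held 0.

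Lists of transcription and chromatin genes had medians from 0.02 to 0.27. Of 40 peaks on Zfp genes, 8 (20.0%) were 2-fold above and 1 below, with a median of 0.27. Those above were Zfp943, Zfp219 (12 input and 40 IP reads, 1.85), Zfp106, Zfp84, Zfp983, Zfp407 and 2 peaks of Zfp469, and the 1 below was Zfp553 (29 and 12, -1.16). With 100 or more reads 2 of 21 Zfp peaks were above, beside 3.39% of all, and the median was 0.08. Zfp genes have similar copies, and how the authors counted reads that match several is not given in the sources used here. The 17 peaks on chromatin remodellers and corepressors had a median of 0.18. Of 25 peaks on histone methylation and acetylation genes (median 0.02) 1 was above, and members of 100 or more reads ran from Kdm2b (74 and 49 reads, -0.48) to Kat6b (60 and 77, 0.47). Among 11 peaks on early response transcription factors (median 0.09), Nr4a3 was above (11 and 29 reads, 1.51), Myc stood at 0.28 (442 and 495 reads, 0.09 to 0.46) and Fosl2 at -0.35 (623 and 452 reads, -0.53 to -0.17).

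The lists on degradation lay on both sides of the overall median. The list of ubiquitin ligases and deubiquitinases also takes in the activating enzyme Uba1. None of its 41 peaks was 2-fold above, 1 (that of Uba1) was below and the median was -0.08. Of the 41, 31 held 100 or more reads, a depth at which 3.39% of all peaks were above. Among those of 100 or more reads, Ubxn7 (429 input and 244 IP reads, -0.70) and Fbxo38 (124 and 82, -0.48) followed Uba1, and Ube3c (63 and 93, 0.67) was highest. Of 28 lysosomal peaks none was above and 1 was below, Naglu, which degrades heparan sulfate (42 and 14 reads, -1.47), with a median of -0.10. The lysosomal calcium channel Mcoln1 had 638 and 410 reads (-0.53, -0.71 to -0.34) and the endolysosomal cation channel Tpcn1 93 and 142 (0.72, 0.34 to 1.12). The 19 peaks on autophagy genes had a median of 0.23, with 1 above, in Atg2a. Map1lc3b, the LC3 protein of autophagosome membranes, had 1342 and 1253 reads (0.01), and Atg14, a subunit of the kinase complex that starts autophagosomes, 103 and 136 (0.51, 0.13 to 0.90).

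The 12 peaks on mTOR, TSC and insulin signalling genes had a median of -0.16 and none past 2-fold. The mTOR inhibitor Tsc1 was lowest with 71 input and 40 IP reads (-0.72, -1.31 to -0.14) and the insulin receptor substrate Irs1 highest with 163 and 264 (0.81, 0.52 to 1.10). The 9 peaks on mitochondrial ribosome and oxidative phosphorylation genes, 8 of them with 100 or more reads, had a median of -0.22 with none past 2-fold. Among them was Ndufs3 of complex I (434 and 290 reads, -0.47). Of 83 cytosolic ribosomal protein genes with a base mean of 100 or more, 2 had a kept peak, the paralogs Rpl39l and Rpl7l1 (32 and 61 reads, 1.04), against 1873 of all 10438 genes at that base mean (17.9%). Peaks outside the table were not analysed here.

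Among 44 solute carrier peaks (median -0.03), 2 were above, in Slc4a7 (27 input and 68 IP reads, 1.45) and Slc22a15 (11 and 22, 1.11), and 3 below (6.82%), in Slc27a1 and Slc25a40. The 10 peaks on Ugt and Cyp enzymes had a median of 0.43, with the Ugt1a cluster and Cyp3a13 (11 and 25 reads, 1.30) above. The 13 peaks on matrix genes had a median of 0.02 and none past 2-fold, and those of 100 or more reads ran from Adamts7 (97 and 52, -0.79) and the collagen Col4a2 (237 and 133, -0.72) to Ltbp1 (52 and 80, 0.73). Notch, Wnt and Hippo genes (15 peaks, median -0.04) had Apc2 (20 and 45, 1.28) and Numbl (26 and 51, 1.08) above. Axon guidance genes (14 peaks, median 0.03) had Dcc above, and the semaphorin receptor Plxnd1 was lowest (70 and 36 reads, -0.85). None of these counts was put to a test.

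**Figure D4:**
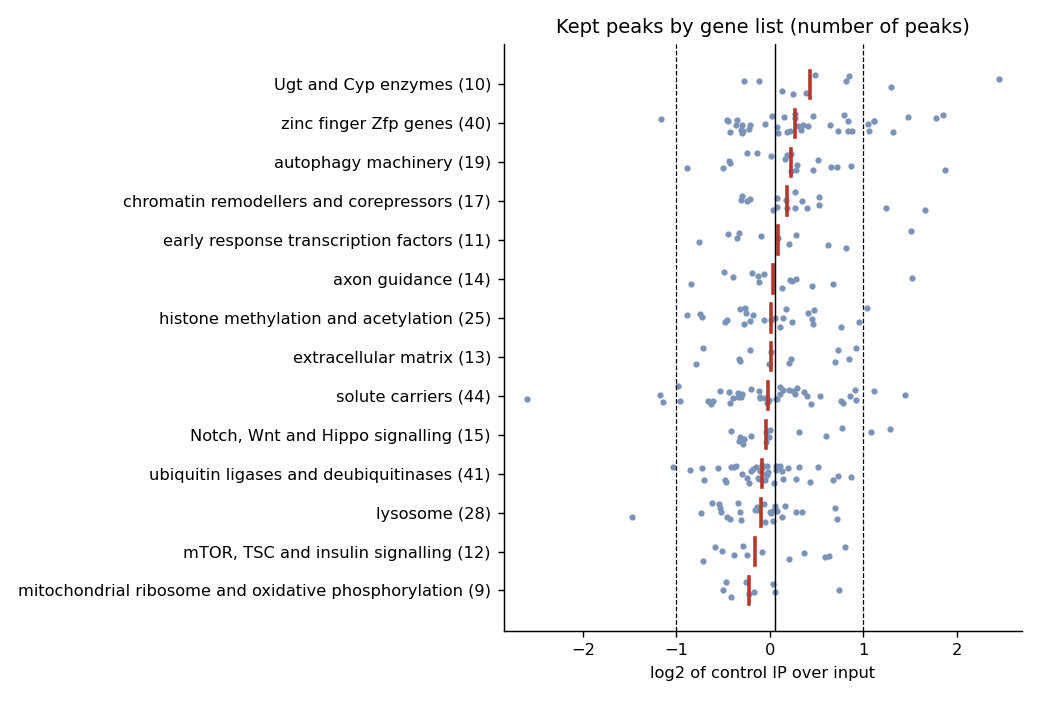
Each point is a kept peak on a gene of the named list, placed by its log2 of control IP over input, with the number of peaks in parentheses. Red bars are list medians, the solid line is the overall median of 0.05, dashed lines mark 2-fold, and list medians run from -0.22 to 0.43 while the points of each list spread over more than 1 unit.

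The same peaks were read in MA cells, whose columns held 359889 IP and 214778 input reads. IP was 2-fold above input at 279 of the 2598 peaks (10.7%) and 2-fold below at 36 (1.39%), with a median of 0.12. The log2 values of control and MA cells had a rho of -0.63 over the 2598 peaks, although input reads (0.92) and IP reads (0.82) rose together across peaks. Of the 240 peaks high in control, 203 were below 0 in MA, with a median of -0.48, and 1 peak was 2-fold above in both, in Zfp983 (18 input and 36 IP reads in control, 1.11, and 1.19 in MA). The 20 peaks low in control were all 2-fold above in MA, with a median of 1.78, and the 36 peaks low in MA were all 2-fold above in control. At the Ugt1a peak, MA cells had 46 input and 32 IP reads (-1.27), and at the Slc27a1 peak of exon 4 they had 121 and 427 (1.07).

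The 4 columns added together varied far less. With control and MA reads pooled, the log2 value had a standard deviation of 0.26 across peaks, against 0.60 in control and 0.62 in MA alone, and no peak was below -0.29. Only 220 peaks were below 0 in both conditions, 558 were above 0 in both, 846 were above 0 in control alone and 974 in MA alone. The table gives 1 list of peaks for both conditions, how it was called from them is not given in the sources used here, and the part of peak selection in the negative relation was not tested. The MA values of these peaks are therefore given as measured, and not as a test of MA.

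**Figure D5:**
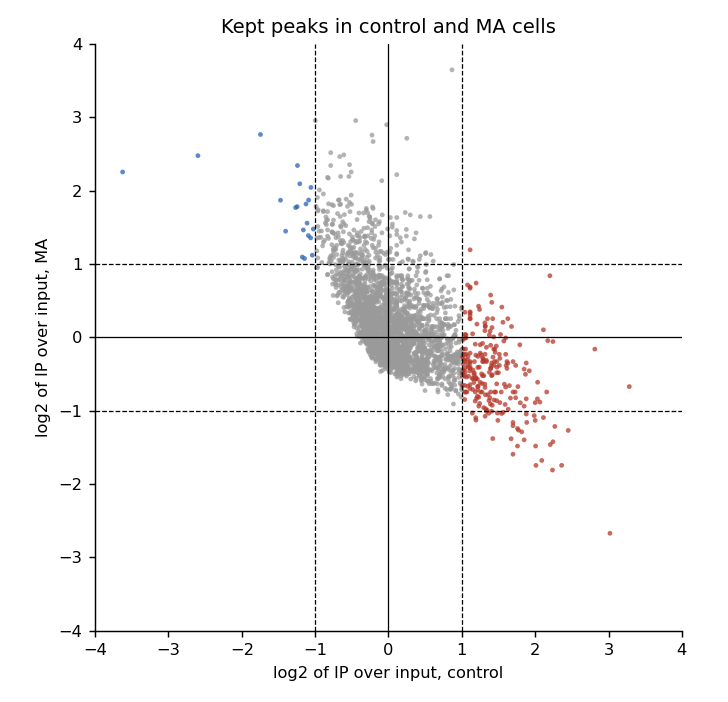
Log2 of IP over input in control cells (horizontal) and MA cells (vertical) for the 2598 kept peaks, with the 240 peaks 2-fold above in control in red and the 20 peaks 2-fold below in blue. Dashed lines mark 2-fold, the lower left corner is empty, and the cloud falls from upper left to lower right (rho -0.63).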

How the data were processed

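MeRIP-seq was carried out on HT22 cells, with 3 IP and 3 input libraries per condition, made with a stranded kit with molecular identifiers. HISAT2 was the authors' aligner (mm10), StringTie and DESeq2 served their expression table, and exomePeak2 called the peaks. How the 1 list of peaks was called from the 2 conditions is not given in the sources used here. Versions are not given in the sources used here. The deposited table holds counts of reads per peak, summed over the 3 libraries of each group, and 0 columns of single libraries were left out. Its columns of the authors' own comparisons (methylation log2 fold changes, p-values and adjusted p-values) were not used, nor were those of the expression table, of which only the base mean was taken, a signal that the authors deposited as normalized counts averaged over libraries.

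Each column was divided by its total, and peaks with 30 or more reads in the 2 control columns together were kept. Peaks were placed on GENCODE M21 transcripts (GRCm38), and the sequence of 1661 of 1661 contiguous peaks was equal in RefSeq's assembly. Without single libraries no count model was fitted. Ratios, intervals and motif counts were tested on artificial counts with known answers. Software was scipy 1.17.1, pysam 0.24.0, matplotlib 3.10.9, pandas 2.3.3 and numpy 2.4.6 under Python 3.11.15. The members and the 17 gene lists were chosen with earlier results of these data known. Genes named are the 12 highest and 12 lowest with 100 or more reads, the 5 peaks with most reads, genes with 4 or more peaks, the 5 whose peaks differ most and up to 3 highest and 3 lowest list members, and others are named as chosen after their values were seen or as list members past 2-fold. The alternatives were other scalings, read minimums, pseudocounts, folds, peak sets, motifs and sums per gene. The peaks of 1 gene past 2-fold are not reported here.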

Additional observations from a re-analysis of the deposited data

Results flagged for a closer look

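Control and MA cells had opposite signs past 2-fold at 36 peaks that were high in control and low in MA, and at 20 peaks that were low in control and high in MA. The difference was not tested, since each condition has 1 pooled count per peak and column, and 1 list of peaks serves both.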

How the results depend on the processing

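No paired analysis was possible because the counts are pooled over replicates, and leaving out each replicate in turn gave no value for the same reason. The count of peaks 2-fold above was 240, and became 50 with 100 or more reads and 515 at 1.5-fold. The count of peaks 2-fold below was 20, and became 4 with 100 or more reads, 167 at 1.5-fold, 31 with the median kept peak set to 0 and 42 with raw counts. With 2 peak sets chosen after seeing the data, 142 were above and 13 below among peaks of exon bases alone, and 142 above and 20 below among genes with a base mean of 100 or more. The other alternatives left 191 to 244 above and 16 to 25 below. The rho of control and MA was -0.77 with 100 or more reads. The difference of medians between long and short exons was 0.13 and stayed between 0.13 and 0.17, that between peaks with and without DRACH was 0.05 and ranged from 0.01 to 0.06, and that between 3′UTR and coding sequence was 0.03 and ranged from -0.01 to 0.06. All 52 alternative medians of 13 gene lists lay within the interval of the list's median. Of 507 alternative values of 169 named peaks, 501 lay within the interval of the peak and 0 changed side among those whose interval was clear of 0. Raw counts moved every value by -0.11 and the median scaling by -0.05. Depth limits the smaller contrasts, as a peak of 30 to 49 reads resolves 0.996 on the log2 scale to each side.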
